A study of Sus scrofa with 599 samples.

Results

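The 100 most abundant transcripts of uncertain coding potential (TUCPs) of porcine adipose tissue (AT) were examined, out of the 1883 TUCPs quantified. TUCPs are assembled transcripts that are annotated neither as protein-coding genes (PCGs) nor as long noncoding RNAs (lncRNAs), because their predicted coding potential is ambiguous. The members were selected on their level, which was the mean, over the 12 combinations of diet and AT, of the mean TPM (a relative transcript abundance that accounts for length and depth) in each combination. The level is therefore given as a description. Because a mean of group means also admits a TUCP that was high in a single group, 14 members drew over 25% of their level from 1 group. The TUCPs carried only serial identifiers, with no symbol, position or sequence paired to them in the data used here, so no genomic context is given for the members.

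RNA-seq libraries came from adult female Bama miniature pigs of 2 years. Pigs on a normal diet formed the NC group (38 libraries), pigs fed a high-fat diet for 22 weeks formed the weight-gain group WG (158 libraries), and a subset of the high-fat-fed pigs that then received 10% of the normal intake for 12 weeks formed the weight-loss group WL (40 libraries). 3 visceral ATs (VATs) and 1 subcutaneous AT were taken: greater omentum (GOM; 9 NC, 45 WG and 10 WL libraries), mesenteric AT (MAD; 12, 36 and 10), retroperitoneal AT (RAD; 12, 39 and 10) and the upper layer of backfat (ULB; 5, 38 and 10). Since several ATs came from the same pig, libraries of different ATs are not independent animals. All libraries were made from bulk tissue, in which fewer cells of a type and less RNA per cell cannot be told apart.

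White AT stores triglyceride in adipocytes that lie among stromal, endothelial and immune cells, and visceral and subcutaneous depots keep different developmental gene programmes. The greater omentum is covered by mesothelium and the mesentery carries lymph nodes, so tissue from either can hold cells that backfat lacks. Transcripts of uncertain coding potential often have no known role, and none is known for the members below. The PCG with the most similar profile is therefore given for the leading members, as a description without any statement on function.

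The libraries held 3594820 to 23796510 estimated counts (median 17348365). All 6 adipocyte markers fixed for the tissue check (ADIPOQ, PLIN1, CIDEC, LPL, FABP4 and LEP) were found, with summed levels of 3807 to 34105 TPM. 3 features of the libraries touch the results. To begin with, 27 libraries had under 89% of bases at Q30 or better in the sequencing summary of the study, here called low-Q30, and 17 of them were NC libraries (7 of 9 GOM, 2 of 12 MAD, 6 of 12 RAD and 2 of 5 ULB). In the NC low-Q30 libraries, PCGs held 74.8% to 84.8% of all TPM, against 91.9% to 96.8% in the 21 NC high-Q30 libraries. Their share was 65.6% to 96.9% in WG (median 94.4%) and 70.8% to 94.5% in WL (median 89.1%). TPM ranges of WL against WG therefore also compare libraries with unequal PCG shares. Further, WG GOM replicate 35 had the lowest total count and detected 53 members above 0.1 TPM, against at least 95 in each other library. In addition, NC GOM replicate 10, a high-Q30 library, and WG GOM replicate 7 were the most alike pair of libraries over PCGs (Pearson r = 0.992) although their diet labels differ, with 1494 and 1021 TPM of G42799. WL RAD replicate 10 entered no count test, because its 299 TUCP counts (17372 to 217469 elsewhere) did not follow its own TPM values.

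A few members dominated the level. G42799 had a level of 1872 TPM, which was 39.5% of the summed level of all TUCPs, and the 10 leading members together held 55.3%. G38155 (234 TPM), G46590 (170.5 TPM), G17463 (103 TPM), G34259 (62.8 TPM) and G30352 (50.4 TPM) came next, ahead of G29142 (39.3 TPM), G10131 (32.7 TPM), G46698 (29 TPM) and G12731 (25.4 TPM). The remainder were far lower, with 6.80 TPM at rank 50. G17463 owed its rank to the NC low-Q30 libraries, where its mean was 642 TPM. It was 21 TPM in NC high-Q30, 12.4 TPM in WG and 4.88 TPM in WL libraries. The means of G42799 in these sets were 7406, 1533, 1044 and 480 TPM. The limit was not a gap: G692 and G10949 lay just inside at 4.32 and 4.31 TPM, and G46133 and G13240 just outside at 4.13 and 4.07 TPM. The median level was 6.66 TPM over the members and 0.561 TPM over all TUCPs, and 51 members exceeded 0.1 TPM in every library whereas 45 were at 0 in at least 1. By group medians in place of means, 95 members would have been kept, and 94 without the low-Q30 libraries.

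Group means of a member differed by 1.22-fold to 280-fold between its highest and lowest group (median 2.69-fold), with 25 members above 5-fold and 5 below 1.5-fold. The highest group was an NC group for 60 members, and NC GOM alone, where 7 of 9 libraries were low-Q30, for 42. It was a WL group for 30 members and a WG group for 10. The steadiest was G9094, with group means of 10.6 to 13 TPM.

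**Figure D1:**
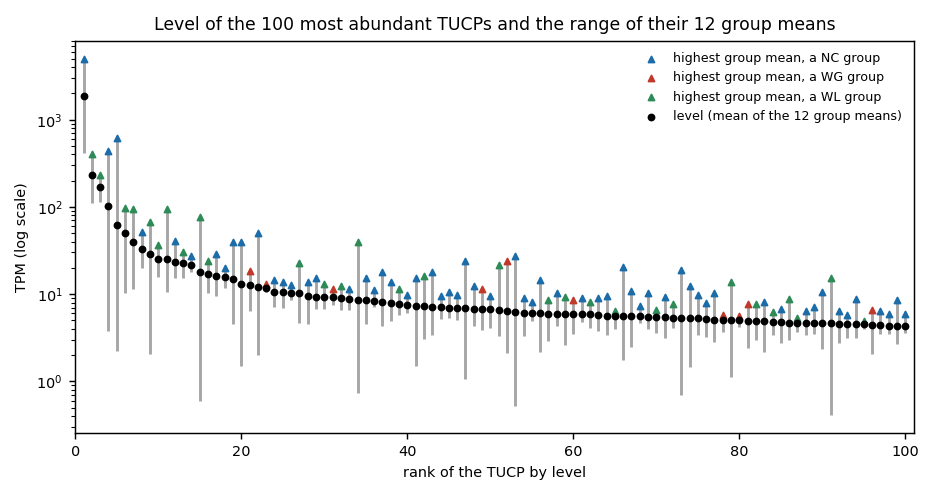
Level of the 100 TUCPs in TPM on a log axis against their rank, with black points for the mean of the 12 group means, grey lines for the range of those group means and triangles for the highest group mean, coloured by diet. G42799 stands at 1872 TPM at the left end, and the curve flattens from 6.80 TPM at rank 50 to 4.31 TPM at rank 100 while 60 triangles belong to NC groups.

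To learn which members differed between ATs, the 4 ATs were compared within each diet with edgeR's quasi-likelihood F test, and a member was called at an adjusted p below 0.05 over all features and a fold change above 1.5 between its highest and lowest AT. 24 of 100 members were called in NC, 32 of 99 in WG (G26036 did not pass the detection filter there) and 21 of 100 in WL. Over all features tested, 24.1% were called in NC, 24.3% in WG and 19.2% in WL, so in these tests, which had no replicate block, the members' shares were close to the background in NC and WL and somewhat above it in WG. With the replicate number as a block more members and more of all features were called in NC. This also held for ULB against the VATs, and the counts are given in the last section. The median log2 difference between highest and lowest AT was 0.81 over the members and 0.83 over all features in NC, 0.43 and 0.37 in WG, and 0.48 and 0.46 in WL. Among the 24 members called in NC, GOM and ULB were each the highest AT for 9, and MAD and RAD for 3 each. Of the 32 called in WG, 10 peaked in ULB, 9 each in GOM and MAD, and 4 in RAD. Of the 21 called in WL, 7 peaked in ULB, 5 each in GOM and RAD, and 4 in MAD. 10 members were called in all 3 diets, and 5 of them had the same highest AT in all 3, whereas 56 members were called in none. The highest ATs and these overlaps were counted for the members only, so no share over all features stands beside them.

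ULB was also set against the mean of the 3 VATs. In NC 5 members were higher and 7 lower in ULB, where 5.76% and 3.39% of all features were. In WG 8 were higher and 7 lower, against 6.17% and 6.29% of all features. In WL 6 were higher and 5 lower, against 3.6% and 4.76%. All of these shares lay within a few points of the background. The NC count fell from 12 to 6 when NC ULB replicate 2 or replicate 7 was left out, and the results below therefore rest on single members.

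G29081 and G34391 marked ULB. G29081 was measured at 9.33, 10.1, 13, 23.5 and 12.3 TPM in the 5 NC ULB libraries, and in RAD, the next AT, at 0.967 to 9.4 TPM (median 2.81). The 9 NC GOM libraries reached at most 1.34 TPM and the 12 NC MAD libraries at most 2 TPM, so ULB overlapped with neither of them. In WG, ULB libraries ran from 5.6 to 24.3 TPM (median 11.9), RAD from 1.36 to 8 TPM (median 2.97), and no GOM or MAD library exceeded 2.25 TPM. In WL the ULB values (9.59 to 22.5 TPM, median 13.5) lay above all RAD values (1.67 to 3.91 TPM, median 2.48), which in turn lay above all GOM and MAD values. ULB exceeded the VATs by 3.33 ± 0.306 (SE), 3.46 ± 0.114 and 4.16 ± 0.161 on the log2 scale in NC, WG and WL (edgeR, adjusted p = 1e-10, 5.4e-65 and 1.5e-22).

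G34391 had the same order of ATs with a smaller spread. Its NC ULB libraries held 9.71, 14.1, 23.4, 7.12 and 17.3 TPM, all above the 2.48 to 6.76 TPM of RAD and above every GOM and MAD library. In WG, ULB ranged from 6.08 to 43 TPM (median 24.4) and RAD from 2.48 to 21.2 TPM (median 6.14), with 27 of 38 ULB libraries above every RAD library. In WL the ULB range was 5.65 to 16 TPM (median 8.07) and 5 of 10 libraries exceeded all of RAD. ULB exceeded the VATs in log2 terms by 2.51 ± 0.186 in NC, 2.81 ± 0.0959 in WG and 1.62 ± 0.145 in WL. G29081 and G34391 were most similar to each other among the named members (r = 0.866 of log2(TPM + 1) over all libraries, which share pigs), and the PCG nearest to both was EN1 (r = 0.916 and 0.857), a homeobox transcription factor of embryonic patterning. EN1 had ULB medians of 12.4, 12.8 and 16.2 TPM in NC, WG and WL, RAD medians of 3.19, 3.95 and 4.55 TPM, and GOM and MAD medians of at most 0.601 TPM.

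G46571 and G46566 marked GOM. The 9 NC GOM libraries had 26.2 to 119 TPM of G46571 (median 69.9), against 0 to 44.3 TPM in MAD, 0 to 3.34 TPM in RAD and 1.13 to 9.74 TPM in ULB. 6 of these 9 GOM libraries were above every MAD library, and all 9 above every RAD and ULB library. In WL the GOM range of 34.3 to 174 TPM (median 61.1) lay apart from all 3 other ATs, none of whose libraries exceeded 9.74 TPM. In WG, GOM ran up to 107 TPM with a median of 31 TPM, and its lowest value, 0 TPM, was that of the shallow WG GOM replicate 35, while 43 of 45 GOM libraries were above every MAD library. GOM exceeded RAD, the lowest AT, by 6.19, 5.82 and 6.02 log2 units in NC, WG and WL (edgeR F test over the 4 ATs, adjusted p = 1.8e-09, 9.9e-57 and 1.6e-18).

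G46566 followed the same pattern at lower levels, with GOM medians of 27.4, 16.6 and 29.8 TPM in NC, WG and WL and means of at most 4.73 TPM in any other AT. Its highest and lowest AT differed by 4.47, 4.47 and 5.55 log2 units (adjusted p = 3.6e-09, 5.4e-60 and 2.3e-16). The 2 profiles were nearly the same (r = 0.966), and the nearest PCG of both was PKHD1L1 (r = 0.960 and 0.959), which encodes a large membrane protein, with GOM medians of 15.9, 7.42 and 15.3 TPM and at most 1.4 TPM elsewhere. Mesothelial markers were also highest in GOM: BNC1 and WT1, the 2 of 6 listed markers that were matched, had summed GOM medians of 84.6, 47.9 and 61.3 TPM against ULB medians of 0.627, 0.183 and 0.0144 TPM, and r was 0.765 with G46571 and 0.763 with G46566. Outside GOM the order of ATs differed. The summed medians were 8.73, 9.03 and 6.82 TPM in MAD and 8.88, 7.21 and 5.24 TPM in RAD, above those of ULB, whereas G46571 was lowest in RAD. The part of mesothelial cells in the high GOM levels was not tested.

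G31457 was highest in RAD and ULB. In NC it ranged from 8.47 to 95 TPM in RAD (median 35.7) and was 9.32, 36.7, 17.1, 29.8 and 32.1 TPM in the ULB libraries, against medians of 6.32 TPM in MAD and 3.74 TPM in GOM. The WG medians were 16.1 TPM in RAD, 16 TPM in ULB, 4.58 TPM in MAD and 1.27 TPM in GOM, and the WL medians 16.6, 14.8, 4.08 and 1.47 TPM. RAD and ULB overlapped in each diet, whereas WG ULB did not overlap with WG GOM, nor WL RAD or WL ULB with WL GOM. RAD and GOM, the ATs at either end, differed by 2.89, 3.59 and 3.57 log2 units (adjusted p = 0.0017, 3.1e-36 and 9.5e-09). Its nearest PCG was HOXC9 (r = 0.786), a homeobox gene of posterior body position, which had RAD medians of 5.97, 6.37 and 7.38 TPM and GOM medians of at most 0.414 TPM.

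G45578 and G38144 were lowest in ULB. G45578 was 0.14, 1.26, 1.98, 1.42 and 2.49 TPM in NC ULB, below every NC library of the other ATs (2.64 to 34 TPM). In WG and WL its ULB medians, 1.16 and 1.15 TPM, remained the lowest, although the ranges overlapped with those of the VATs. The log2 fold change of ULB against the VATs was −2.75 ± 0.506, −1.63 ± 0.229 and −1.17 ± 0.266 in NC, WG and WL (adjusted p = 0.0002, 6.6e-10 and 0.0017). G38144 was also lower in ULB, with log2 fold changes of −1.28, −1.15 and −0.57 in NC, WG and WL, of which the last missed the fold threshold. The PCG nearest to G45578 was RBL2 (r = 0.717), a retinoblastoma family pocket protein, and that nearest to G38144 was C19orf44 (r = 0.741), which was also nearest to G10131 (r = 0.804).

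G34259 owed its rank to a few ULB libraries. Only 7 libraries held more than 50 TPM. They were NC ULB replicates 2, 7 and 12 (2456, 245 and 421 TPM) and 4 of the 38 WG ULB libraries (67.3 to 2154 TPM). The other 2 NC ULB libraries, both low-Q30, held 1.03 and 1.39 TPM, the other 34 WG ULB libraries at most 9.82 TPM and the 10 WL ULB libraries at most 11 TPM, and elsewhere no library exceeded 35.3 TPM. The edgeR fit gave a highest-to-lowest difference of 8.60 log2 units in NC (adjusted p = 1.2e-11), 5.18 in WG (adjusted p = 8.4e-31) and 0.62 in WL (adjusted p = 0.6), so the group means of G34259 describe few pigs, and NC ULB alone made up 83.0% of its level. The nearest PCG was PHEROC (r = 0.829), encoding pheromaxein C, a chain of a pheromone-binding protein of porcine saliva, which reached 821 TPM in NC ULB and 252 TPM in WG ULB and at most 14.7 TPM in any other group.

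**Figure D2:**
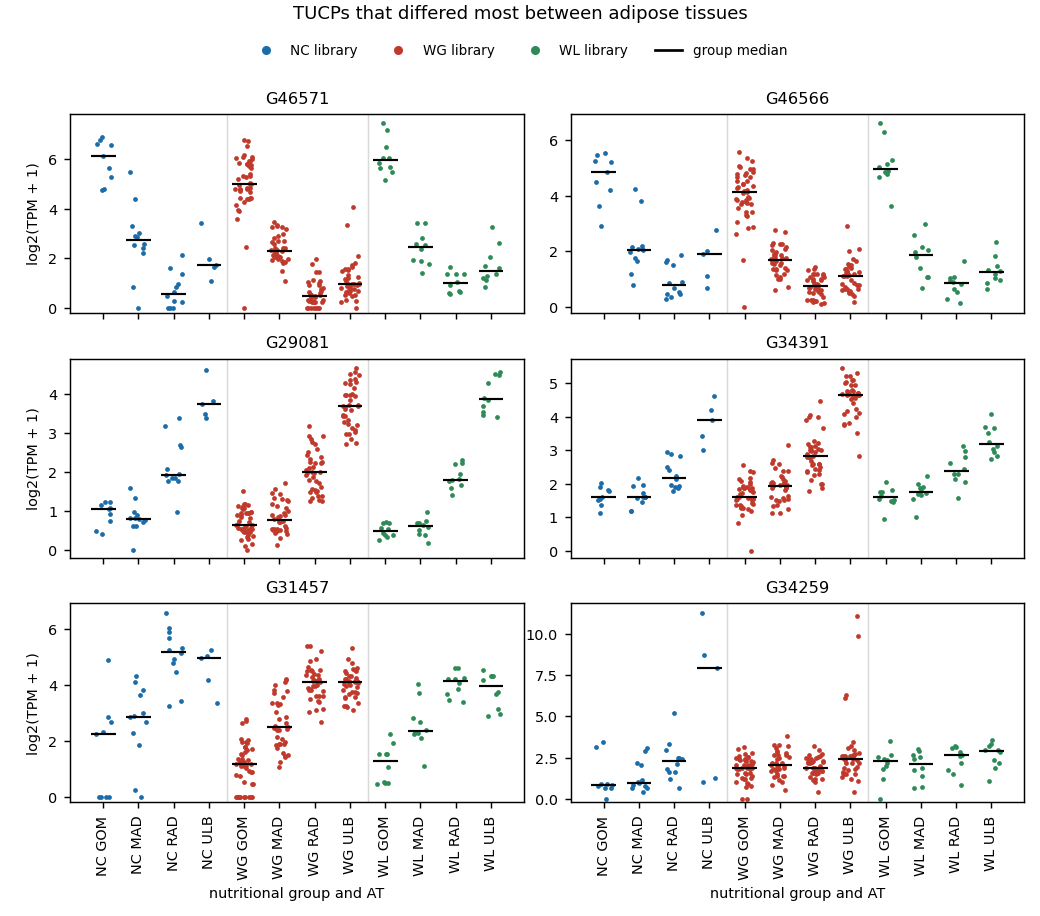
Level as log2(TPM + 1) of 6 TUCPs in each library by diet and AT, with black bars for group medians and colours for diet. G46571 and G46566 stand out in the 3 GOM groups and G29081 and G34391 in the 3 ULB groups, G31457 is high in RAD and ULB, and G34259 is high in 7 ULB libraries only.

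Besides G34259, the leading members G38155, G30352, G46698, G29142 and G10131 were called between ATs in some diets. G29142 was called in NC and WL, G10131 in WG, and G38155 in NC and WG. G38155 was higher in ULB than in the VATs in NC (302 ± 291 TPM (SD, n = 5) against 110 to 124 TPM; log2 fold change 1.51 ± 0.335, adjusted p = 0.0021), with ULB libraries spread from 83.2 to 811 TPM, so that the ranges overlapped. G30352 was called in WG, where GOM was highest (median 57.9 TPM, up to 384 TPM) and ULB lowest (7.9 to 88.1 TPM, median 25.5), with a difference of 1.51 log2 units (adjusted p = 7.1e-06). G46698 was called in NC, where ULB exceeded GOM by 3.45 (adjusted p = 0.042), and in WG, where GOM exceeded RAD by 1.97 (adjusted p = 0.0018). In NC, however, the high ULB value was that of a single library (78 TPM, with a median of 2.13 TPM). In contrast, G46590 was called in no diet, with AT means of 114 to 146 TPM in NC, 164 to 219 TPM in WG and 170 to 231 TPM in WL (means over all libraries of a group).

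Sequencing quality differed between the NC libraries, so the tests were repeated without the low-Q30 libraries. In the high-Q30 libraries alone, G46571, G46566, G29081, G34391, G31457 and G45578 were called between ATs in all 3 diets. The total in NC, however, fell to 10 members among the 21 high-Q30 libraries. Without NC GOM replicate 10 the NC count was 23, without WG GOM replicate 35 the WG count was 34, and without 4 MAD libraries with high lymphocyte markers (described with weight loss) the WG and WL counts were 30 and 18. When WL RAD replicate 10 was entered with its deposited counts, 13 members were called in WL.

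To learn which members changed with weight gain, WG was compared with NC in each AT. Of the 100 members, GOM had 12 higher and 33 lower in WG, MAD 3 and 16, RAD 6 and 34, and ULB 1 and 13 (edgeR quasi-likelihood test, adjusted p below 0.05 and over 1.5-fold). Over all features, GOM had 15.9% higher and 27.4% lower, MAD 4.19% and 7.02%, RAD 7.64% and 19.1%, and ULB 1.19% and 5.23%. The members' median log2 fold changes in GOM, MAD, RAD and ULB were −0.42, −0.15, −0.36 and −0.20, against −0.10, −0.06, −0.07 and −0.00 over all features. The ULB count of 14 went to 8 without NC ULB replicate 5 and to 7 without replicate 9, the 2 low-Q30 libraries there. In GOM 59.8% of the other TUCPs were called, more than among the members, and their median was −0.77.

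The split between higher and lower depended on the scaling. Relative log expression scaling or library sizes from PCGs alone gave 8 higher and 51 lower members in GOM, and moved the median of all features there to −0.30. Scaling by the TUCP table alone gave 34 higher and 10 lower members in GOM, while RAD had 15 and 13 and MAD 5 and 6. PCG-based library sizes gave 3 and 39 in RAD, and moved the median of all features to −0.20 in RAD and −0.14 in MAD. Directions in GOM and RAD are thus relative to the scaling over all 3 transcript classes.

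Sequencing quality moved with this comparison, since 17 of 38 NC libraries but 2 of 158 WG libraries were low-Q30. G42799 ranged from 4532 to 11193 TPM in the 17 NC low-Q30 libraries and from 597 to 2657 TPM in the 21 NC high-Q30 libraries, without overlap. WG libraries ranged from 125 to 2253 TPM and WL libraries from 214 to 753 TPM. The NC high-Q30 libraries thus overlapped with WG, while the NC low-Q30 libraries lay above every other library of the series.

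G17463 parted even further, at 368 to 934 TPM in NC low-Q30 and 4.45 to 47 TPM in NC high-Q30 libraries, against 1.68 to 48.6 TPM in WG and 0.925 to 15.2 TPM in WL. The same gap was seen for G31272 (9.28 to 74.4 TPM against at most 2.1 TPM), G24136 (at least 19.6 against at most 5.87 TPM), G4391 (23.5 to 56.9 against at most 4.12 TPM) and G26036 (14.6 to 50.6 against at most 2.16 TPM). In the other diets, G17463 was at 1.68 to 4.41 TPM in the 2 WG low-Q30 libraries and at 2.18 to 9.19 TPM in the 8 WL low-Q30 libraries. What set the NC low-Q30 libraries apart was not tested. The PCG nearest to G42799 and G17463 was CRYBA1 (r = 0.742 and 0.861), a lens crystallin gene, at 55.3 to 201 TPM in NC low-Q30 libraries and at most 2.36 TPM in NC high-Q30 libraries. Within the 209 high-Q30 libraries the 2 correlations were 0.022 and 0.124.

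**Figure D3:**
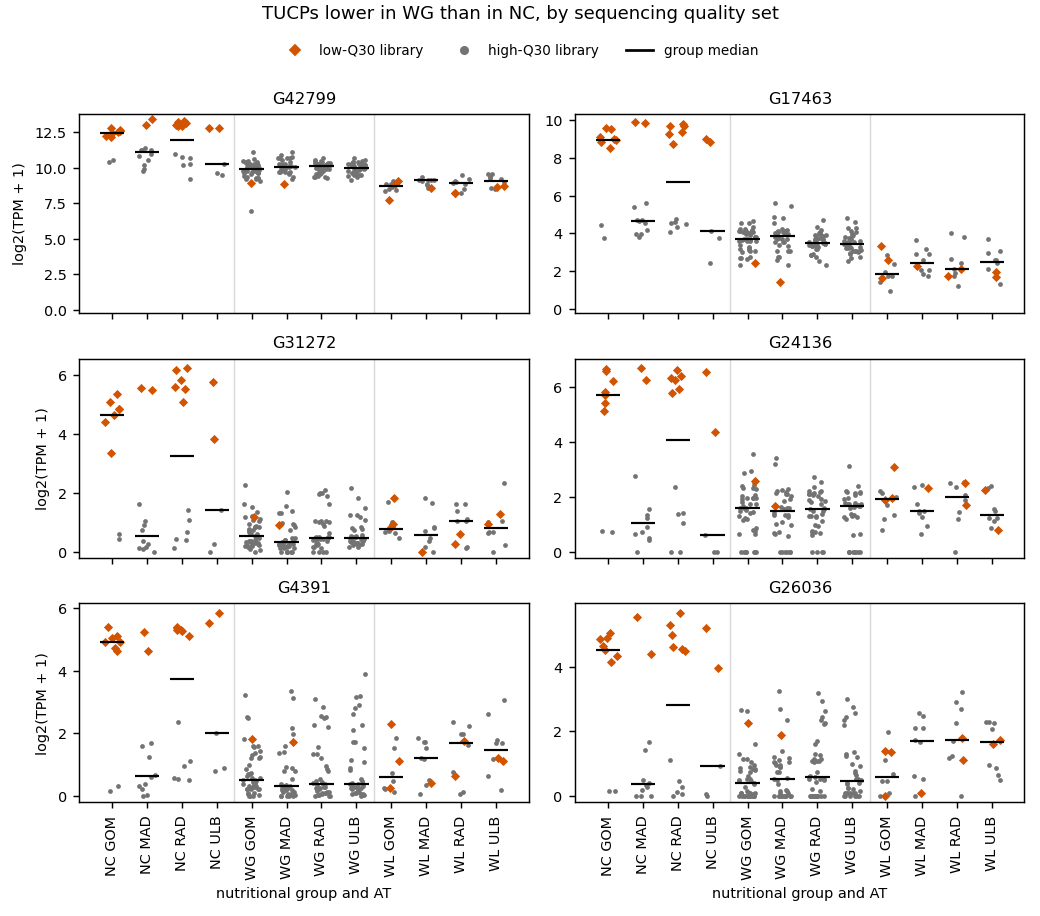
Level as log2(TPM + 1) of 6 TUCPs in each library by diet and AT, with orange diamonds for low-Q30 libraries, grey points for high-Q30 libraries and black bars for group medians. The orange NC libraries form a separate upper band in each AT (4532 to 11193 TPM for G42799), and no orange WG or WL library reaches that band.

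Over all libraries, these members were lower in WG. G17463 fell by 5.13 ± 0.255, 3.68 ± 0.41, 5.14 ± 0.34 and 4.15 ± 0.36 log2 units (GOM, MAD, RAD and ULB; edgeR, adjusted p = 2e-26, 3.1e-09, 3.2e-18 and 1.1e-12). In the high-Q30 libraries alone its log2 fold changes were −0.32, −0.70, −0.97 and −0.04, and only that in RAD was called (adjusted p = 0.019). G42799 fell by 2.33 ± 0.182, 1.6 ± 0.23, 2.41 ± 0.212 and 1.77 ± 0.252 in the same ATs, and its changes in the high-Q30 libraries alone were −0.50, −0.73, −0.50 and 0.05. Here MAD, with 10 NC high-Q30 libraries, was called (adjusted p = 0.0086), and the others were not. G31272, G24136, G4391 and G26036 were called lower in all 4 ATs over all libraries (log2 fold changes of −2.56 to −5.27) and in none among the high-Q30 libraries, where 13 of their 16 values were above 0. These 4 members had mean levels of 28 to 69.6 TPM in the NC low-Q30 libraries. Elsewhere their means were 0.391 to 1.14 TPM (NC high-Q30), 0.653 to 2.19 TPM (WG) and 0.956 to 2.58 TPM (WL). The latter means all lay below the 4.31 TPM of G10949, the last member. The 4 were thus selected through the NC low-Q30 libraries, and their lower calls over all libraries are not independent of that selection. The same holds for G43785 and G23153, named after their values were seen and among the 28 members counted below. Their means were 24 and 13.9 TPM in NC low-Q30 libraries and 1.1 and 2.48 TPM in NC high-Q30 libraries. In WG they were 1.85 and 2.7 TPM, and in WL 2.55 and 3.24 TPM. The rank of G17463 rested on the same libraries, so its lower calls are not independent of that rank. G26036 met the detection minimum in no WG group. It entered the GOM fit through the NC libraries and the other 3 fits through the WL libraries. Low sequencing quality and NC could be told apart only in part: GOM had 2 and ULB 3 NC high-Q30 libraries.

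Counts over several ATs were made for the members only, so no share over all features stands beside them. Over all libraries 28 members were lower in WG in at least 2 ATs and higher in none. With the Q30 set as a term of the model 8 members were, of which G34496 was not among the 28. In the high-Q30 libraries alone 4 of the 28 were, namely G32059, G43421, G28872 and G8139. These and G34496 were named after their values were seen. By AT, the Q30 term gave 33, 11, 16 and 1 called members in either direction (GOM, MAD, RAD and ULB), and the high-Q30 libraries alone gave 1, 11, 11 and 1. Of the 34 members lower in RAD, 14 were still called with the term and 9 in the high-Q30 libraries alone. In GOM, where 2 NC libraries were left, 20 and 1 of 33 were. Fewer NC libraries also lower the power of the test for any feature, so a lost call need not mean a lost difference. Scaling moved the count of 28 as well, to 33 with relative log expression and to 36 with PCG-based library sizes.

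G28872 was the member lower in WG in all 4 ATs that held up best. Its medians were 8.28, 12.1, 9.35 and 6.59 TPM in NC GOM, MAD, RAD and ULB, and 3.12, 3.68, 2.75 and 2.38 TPM in WG. The ranges overlapped in each AT, for example 5.36 to 22 TPM in NC MAD and 1.21 to 9.06 TPM in WG MAD. The log2 fold changes were −1.43 ± 0.234, −1.50 ± 0.232, −2.09 ± 0.225 and −1.50 ± 0.284 (adjusted p = 7.4e-07, 5.2e-06, 4.3e-11 and 0.00018). In the high-Q30 libraries alone they were −1.36, −1.62, −2.04 and −1.48, and all but that in GOM were called (adjusted p = 0.16, 9.9e-06, 2.3e-06 and 0.03). G10131 was lower in WG in GOM, MAD and RAD (log2 fold changes of −0.69, −0.71 and −0.64), but in GOM the value was 0.008 when the TUCP table was scaled alone. In the high-Q30 libraries alone its value in MAD, −0.71, was called (adjusted p = 0.0091).

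5 members were higher in WG in at least 2 ATs and lower in none: G30352, G29142, G12731, G45771 and G10781. G30352 ranged from 1.52 to 24.2 TPM in NC RAD (median 9.31) and from 13.1 to 433 TPM in WG RAD (median 65.4), with 31 of 39 WG libraries above every NC library. In MAD the NC range was 1.64 to 63.7 TPM (median 7.96) and the WG range 9.39 to 343 TPM (median 71.3). In GOM it was 2.95 to 64.7 TPM (median 14) in NC and up to 384 TPM (median 57.9) in WG, with 0 TPM in WG GOM replicate 35. ULB, by contrast, had medians of 10.1 and 25.5 TPM. The log2 fold changes were 2.40 ± 0.598, 2.12 ± 0.533 and 2.89 ± 0.424 in these 3 ATs (adjusted p = 0.00065, 0.0042 and 1.8e-07), whereas ULB, at 0.83 ± 0.566, was not called (adjusted p = 0.46). MAD and RAD were called in the high-Q30 libraries alone (2.42 and 2.96, adjusted p = 0.0061 and 0.0014). The nearest PCG was TREH (r = 0.825), encoding trehalase, with NC medians of 2.55 to 4.15 TPM and WG medians of 12.2 to 23.4 TPM. The summed level of 6 macrophage markers had r = 0.488 with G30352, and its medians were 790, 293, 391 and 498 TPM in NC and 932, 672, 609 and 535 TPM in WG. Its part in the increase was not tested.

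G12731 rose in the VATs by 0.86 ± 0.219, 0.69 ± 0.179 and 0.75 ± 0.19 log2 units (GOM, MAD and RAD; adjusted p = 0.00086, 0.0052 and 0.0013). Its NC medians were 14, 15.9 and 13.9 TPM and its WG medians 27.7, 29.4 and 26.3 TPM, with overlapping ranges. In ULB the difference was of like size, 0.87 ± 0.316, but missed the threshold (adjusted p = 0.085). MAD and RAD were called in the high-Q30 libraries alone. Its nearest PCG was LEP (r = 0.608), encoding leptin, the adipocyte hormone that reports fat stores, with medians of 75, 78.3, 129 and 249 TPM in NC and 375, 322, 547 and 595 TPM in WG. LEP is 1 of the 6 adipocyte markers, but G12731 had r = 0.191 with their summed level.

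G29142 was higher in WG in GOM (5.68 to 19.1 TPM in NC and 6.44 to 83.8 TPM in WG, with 41 of 45 WG libraries above every NC library), MAD and RAD, by 1.79 ± 0.275, 1.02 ± 0.219 and 0.88 ± 0.222 log2 units (adjusted p = 2e-07, 0.00079 and 0.0013). MAD was called in the high-Q30 libraries alone (1.00, adjusted p = 0.0054). USP5, a deubiquitinase gene, was its nearest PCG (r = 0.708). Across libraries G29142 also varied with the summed level of the adipocyte markers (r = 0.556), whose median was 7982 TPM in NC and 15100 TPM in WG in GOM, 16085 and 18003 TPM in MAD, and 19744 and 21989 TPM in RAD. Their part in the increase was not tested. G45771 was higher in RAD and ULB, and was the member higher in ULB (0.89 ± 0.373 and 1.39 ± 0.442, adjusted p = 0.049 and 0.042). G10781 was higher in GOM and RAD, by 0.67 and 0.71. Neither was called in the high-Q30 libraries alone.

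G46698 showed the largest increase in GOM. NC GOM libraries held 0.521 to 2.86 TPM and WG GOM libraries 0.713 to 587 TPM (median 34.5), a log2 fold change of 4.95 ± 1.06 (adjusted p = 9.6e-05). With 2 NC high-Q30 libraries it was 6.41 and not called (adjusted p = 0.2). Its nearest PCG was ZNF444, a zinc finger gene (r = 0.895).

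**Figure D4:**
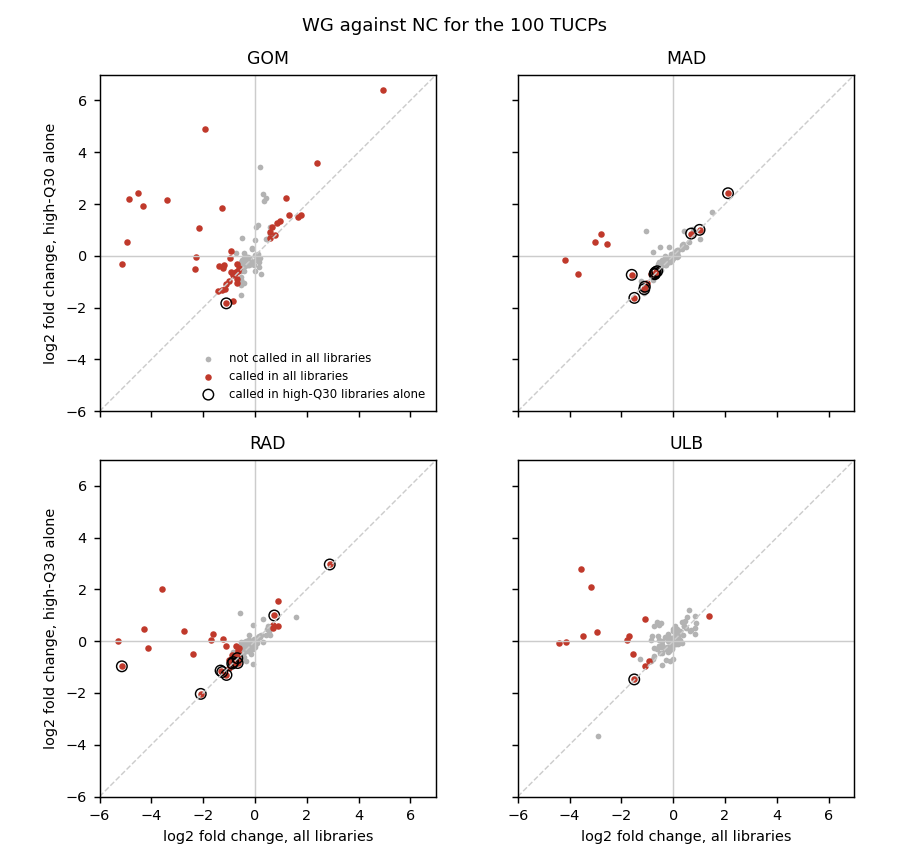
Log2 fold change of WG against NC for the 100 TUCPs in each AT, over all libraries (horizontal axis) and over high-Q30 libraries alone (vertical axis), with red points for members called over all libraries, rings for those called in the high-Q30 libraries alone and a dashed line of equality. Points far to the left at vertical values near or above 0, such as G17463 at −5.13 and −0.32 in GOM, are the members high in NC low-Q30 libraries, while G30352 (2.89 and 2.96 in RAD) and G28872 (−2.09 and −2.04 in RAD) lie near the line. Directions are those of the scaling over all transcript classes, and G10131 in GOM is at 0.008 by the TUCP table alone.

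To learn which members changed with weight loss, WL was compared with WG. The 2 diet comparisons share the WG libraries, so their values are not independent. GOM had 4 members higher and 5 lower in WL, MAD 8 and 11, RAD 1 and 3, and ULB 3 and 5. Over all features GOM had 2.14% higher and 1.66% lower, MAD 7.09% and 6.69%, RAD 1.48% and 1.91%, and ULB 2.12% and 3.3%. The members' median log2 fold changes were 0.02, −0.07, 0.04 and 0.01, and those of all features −0.03, −0.03, −0.03 and −0.06. Thus most members did not pass in this comparison, and a few passed in every AT.

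4 members were called in all 4 ATs, with G42799, G31316 and G18695 lower and G46317 higher in WL. They were also called in all 4 ATs among the high-Q30 libraries alone. WL RAD tests rest on 9 libraries, since replicate 10 was left out.

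G42799 ranged from 214 to 544 TPM in WL GOM (median 425) and from 125 to 2183 TPM in WG GOM (median 938), and 42 of 45 WG libraries were above every WL library. In MAD it ranged from 381 to 658 TPM in WL (median 549) and from 472 to 2253 TPM in WG (median 1046), with 33 of 36 WG libraries above. RAD (297 to 707 TPM against 632 to 1604 TPM) and ULB (367 to 753 TPM against 573 to 1669 TPM) had 34 of 39 and 31 of 38 WG libraries above. WL thus lay in or below the lower end of the WG range in each AT. G42799 fell by 1.22 ± 0.223, 1.13 ± 0.287, 1.15 ± 0.286 and 0.98 ± 0.235 log2 units in GOM, MAD, RAD and ULB (edgeR, adjusted p = 0.00017, 0.0034, 0.0093 and 0.0039).

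G31316 was at 0.327 to 3.39 TPM in the 40 WL libraries. In WG ULB it ranged from 5.27 to 34.2 TPM (median 11.3), so that no library of WL ULB (1.15 to 3.16 TPM) overlapped. In the VATs the WG values spread from 0.928 to 33.6 TPM, with medians of 3.72, 3.14 and 3.75 TPM in GOM, MAD and RAD, and 27 of 45, 16 of 36 and 23 of 39 libraries were above every WL library of any AT. The log2 fold changes were −2.01 ± 0.472, −2.12 ± 0.513, −2.28 ± 0.508 and −3.13 ± 0.298 (adjusted p = 0.0044, 0.0021, 0.0032 and 9.1e-11).

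G18695 had WG medians of 9.47, 10.2, 10.5 and 11.9 TPM in GOM, MAD, RAD and ULB and WL medians of 4.87, 4.81, 5.64 and 6.77 TPM. 39 of 45, 35 of 36, 26 of 39 and 23 of 38 WG libraries were above every WL library of the same AT. It fell by 0.94 ± 0.204, 1.22 ± 0.191, 0.84 ± 0.212 and 0.97 ± 0.237 log2 units (adjusted p = 0.0019, 5.3e-06, 0.011 and 0.0048).

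G46317 moved the other way, with WG medians of 4.93, 4.67, 4.21 and 3.98 TPM and WL medians of 17.7, 16.4, 11.2 and 17.2 TPM. The groups overlapped: 1, 4, 3 and 5 of 10 WL libraries were above every WG library. The highest values were 67.9, 75.2 and 44.2 TPM in replicate 3 of WL GOM, MAD and RAD. It rose by 1.63 ± 0.331, 1.84 ± 0.406, 1.67 ± 0.317 and 1.51 ± 0.316 log2 units (adjusted p = 0.00076, 0.00076, 0.00042 and 0.00095).

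**Figure D5:**
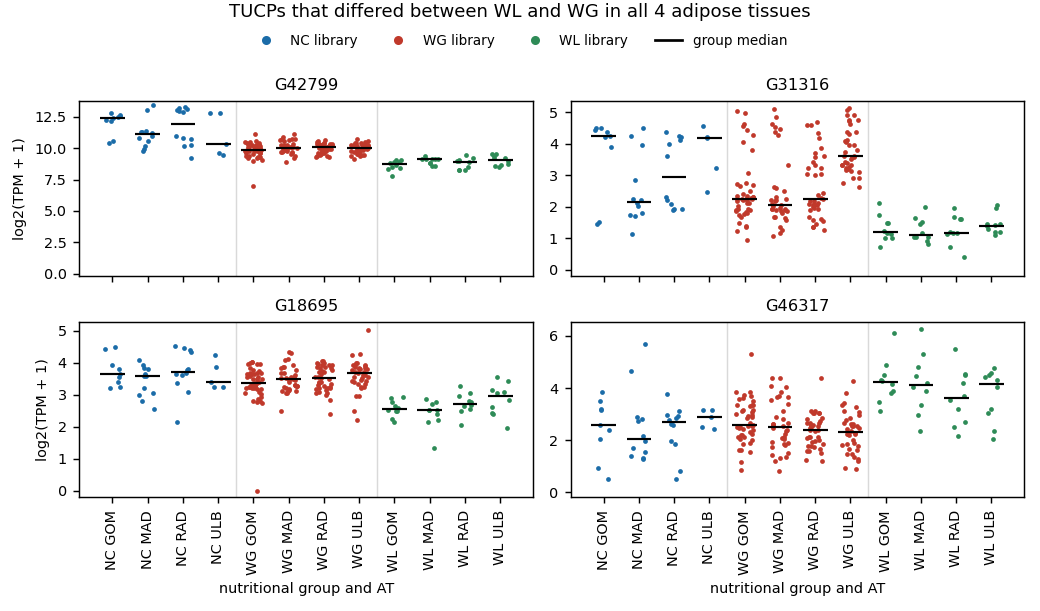
Level as log2(TPM + 1) of 4 TUCPs in each library by diet and AT, with black bars for group medians and colours for diet. The WL libraries of G42799, G31316 and G18695 lie at the bottom of the WG ranges or below them, and those of G46317 lie higher, with WL medians of 11.2 to 17.7 TPM against WG medians of 3.98 to 4.93 TPM.

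Other members changed in fewer ATs. G17463 was lower in WL in GOM (−1.70 ± 0.375, adjusted p = 0.0021) and MAD (−1.57 ± 0.569, adjusted p = 0.041), and G25226 in GOM (−0.60 ± 0.178, adjusted p = 0.03) and MAD (−0.72 ± 0.228, adjusted p = 0.018). In GOM, G46571 and G46566 were higher in WL by 1.04 ± 0.273 and 1.19 ± 0.268 (adjusted p = 0.012 and 0.0027), but in the high-Q30 libraries alone by 0.81 and 0.89, which were not called (adjusted p = 0.22 and 0.15). In ULB, G34391 was lower in WL by 1.49 ± 0.198 log2 units (adjusted p = 3.2e-07), with 32 of 38 WG libraries above every WL library. In that AT, G29142 was higher, with 43.3 to 193 TPM (median 95.3) in WL and 18 to 104 TPM (median 46.4) in WG (0.82 ± 0.221, adjusted p = 0.012).

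In MAD, lymphocyte markers moved with the comparison. Summed T cell markers (CD3D, CD3E, CD2 and CD5) had medians of 42.3 TPM in WL MAD and 26.4 TPM in WG MAD, but reached 585, 539 and 255 TPM in WL MAD replicates 6, 7 and 1 and 221 TPM in WG MAD replicate 31. The B and plasma cell markers reached 3195, 7670, 2291 and 3911 TPM in the same libraries, against medians of 191 and 51.6 TPM. These libraries also held the highest G38116 levels of MAD (454, 230, 155 and 240 TPM, against medians of 15.5 TPM in WL and 18.3 TPM in WG) and the highest G17619 levels (65.1, 64, 40.6 and 67.1 TPM, against medians of 7.55 and 4.61 TPM). Both members were called higher in WL MAD, by 1.72 ± 0.496 and 1.92 ± 0.387 (adjusted p = 0.01 and 0.00024), and are named here after their values were seen. Without these 4 libraries the values were −0.91 and 0.65, neither of which was called (adjusted p = 0.3 and 0.058), and the members called in MAD went from 19 to 6 (3 higher and 3 lower). G42799, G31316, G18695 and G46317 were among those 6. For G38155 the difference in MAD went from 1.10 to 0.49, and G17463, G25226 and G45578 (−1.12 ± 0.385 with all libraries) were also no longer called. Fewer WL MAD libraries also lower the power of the test, so a lost call need not mean a lost difference. All 11 members called lower kept their sign, with a median log2 fold change of −1.12 with and −1.01 without these libraries. Of the 8 called higher 7 kept theirs, with medians of 1.05 and 0.646.

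Whether the change with diet differed between ATs was tested with the interaction of diet and AT in 1 model of 235 libraries. 11 of 100 members were called, against 12.5% of all features, so the members did not stand apart from the background. G34259 (F = 8.38, adjusted p = 4.7e-06) had its high values in a few ULB libraries, and showed log2 fold changes of WG against NC of 0.44 in GOM and −2.91 in ULB and of WL against WG of 0.41 and −4.22. For G34391 (adjusted p = 0.00042) the WL change was −1.49 in ULB and −0.07 in GOM. G29142 (adjusted p = 0.0075) changed by −0.29 (GOM), −0.44 (MAD) and 0.82 (ULB) with weight loss and by 1.79 (GOM) and 0.82 (ULB) with weight gain. G25226 (adjusted p = 0.0047) was at −0.88 in RAD and 0.40 in ULB with weight gain, and G12153 (adjusted p = 0.0056), one of the members high in NC low-Q30 libraries, at −2.28 in GOM and −0.51 in MAD. Without the 4 lymphocyte-rich MAD libraries 6 members were called, and G17619 and G38116 no longer were, nor were G28225, G38155, G3132 and G38434.

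20 members were called in no comparison between ATs or diets, and 32 in neither diet comparison in any AT. Neither number was counted over all features, so neither is set against a background. G9094 (1.22-fold between its highest and lowest group mean), G19507 (1.24-fold) and G26317 (1.32-fold) were the steadiest of the 20. G9094 ranged from 4.73 to 22.2 TPM over the 158 WG libraries, so that single libraries varied more than group means.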

How the data were processed

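RNA-seq of rRNA-depleted, strand-specific libraries from 4 ATs was used. Per the labels and the study's methods, the authors quantified transcripts with kallisto 0.43.0 against the Sscrofa11.1 annotation plus lncRNAs and TUCPs from an earlier assembly, and summed them to genes with tximport. The authors deposited TPM values and estimated counts for PCGs, lncRNAs and TUCPs in separate tables. The TPM of the 3 classes share 1 fixed total per library, so a class that takes more lowers the others. 9 further columns matched no sample and were not used. Members, lists and tests were chosen with earlier results of these data known.

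Estimated counts were rounded and the 3 classes joined. Features above 0.5 TPM (PCGs) or 0.1 TPM (lncRNAs and TUCPs) in at least 80% of the libraries of a group were tested with edgeR 4.0.16 (R 4.3.3) after TMM scaling, with Benjamini-Hochberg adjustment over all features. All 100 members passed that filter, except G26036 in the fit of the ATs in WG. A member high in a single group can pass through that group alone. Calls required over 1.5-fold change and an adjusted p under 0.05. Diets were compared within an AT, ATs within a diet, and their interaction over all libraries. All tests were 2-sided. Errors of log2 fold changes are standard errors from the quasi-likelihood F statistic, and errors of levels are SD. The p-values measure the spread between libraries.

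Named members were the 10 with the highest level, the 10 called between ATs in WG with the largest difference, the up to 5 per direction called in most ATs (at least 2) in each diet comparison, and those beside the rank limit. Correlations were computed on log2(TPM + 1), and DESeq2 1.42.0 was an alternative. The edgeR and DESeq2 steps were tested on simulated data. Replicate numbers, which the labels do not tie to a pig, were not used as a block in the main tests. The depth of 3594820 to 23796510 counts per library limits members at low levels most.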

Additional observations from a re-analysis of the deposited data

Results flagged for a closer look

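In groups of 4 to 10 libraries, 162 combinations of a named member and a group were screened for a single library far from the others (Dixon's 95% criterion), and 29 values in 21 libraries were found. The criterion flags about 1 in 20 by chance where values are normally distributed, which TPM values need not be, so the number found was not set against chance. In NC ULB, with 5 libraries, these were G34259 at 2456 TPM in replicate 2, G31272 at 52.5 TPM in replicate 5, G38155 at 811 TPM and G46698 at 78 TPM in replicate 7, G24136 at 91.3 TPM, G46571 at 9.74 TPM and G29081 at 23.5 TPM in replicate 9, and G10781 at 9.76 TPM in replicate 12. NC GOM had G30352 at 64.7 TPM in replicate 7 and G31457 at 28.9 TPM in replicate 8.

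In WL, replicate 3 was high for G46317 in GOM (67.9 TPM), MAD (75.2 TPM) and RAD (44.2 TPM), and in ULB it was high for G46698 (66.9 TPM) and G31272 (4.03 TPM). WL RAD replicate 2 stood apart for G38144 (8.58 TPM), G45578 (10.2 TPM) and G10131 (81.3 TPM), and WL MAD replicate 2 for G45578 (9.55 TPM) and G38144 (9.4 TPM). G30352 was high in replicate 10 of WL MAD (390 TPM) and WL ULB (180 TPM). WL GOM replicate 10 was high for G34259 (10.2 TPM) and G24136 (7.51 TPM). Single values stood apart for G38155 in WL MAD replicate 6 (1028 TPM), a library high in lymphocyte markers, for G12731 in WL MAD replicate 9 (51 TPM), for G46566 in WL RAD replicate 6 (2.15 TPM), for G29142 in WL ULB replicate 5 (193 TPM) and for G25226 in WL ULB replicate 6 (9.47 TPM).

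By the edgeR interaction test, 11 members were called for a change with diet that differed between ATs. Of these 11, 7 were still called with the Q30 set as a term and 5 without the 4 lymphocyte-rich MAD libraries. Low-Q30 libraries were spread unevenly over the NC ATs, and libraries of different ATs share pigs. The adjusted p was 4.7e-06 for G34259, 0.00042 for G34391, 0.00058 for G17619, 0.0013 for G38116, 0.0047 for G25226, 0.0056 for G12153, 0.0075 for G29142, 0.019 for G28225, 0.027 for G38155, 0.03 for G3132 and 0.048 for G38434. G17619 and G38116 had their highest MAD values in the libraries with the highest T cell markers, and the part of those cells was not tested.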

How the results depend on the processing

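The 15 counts of called members gave 157 values under alternatives, of which 136 stayed within 1.5-fold of the reported count, 17 were lower and 4 higher. The counts that moved further were, for WG against NC in the high-Q30 libraries alone, GOM 1, MAD 11, RAD 11 and ULB 1, and with Q30 as a term MAD 11, RAD 16 and ULB 1. Those for WL against WG in RAD were 7 by DESeq2 and 8 with the Q30 term, that for the interaction 7 with the Q30 term, and those between ATs 10 in NC among high-Q30 libraries and 13 in WL with the deposited counts of WL RAD replicate 10. By the TUCP table alone MAD had 11 for WG against NC. The replicate block gave 37 members between ATs in NC (30.6% of all features) and 23 for ULB against VATs in NC (17.6%), and changed no other count by over 1.5-fold. Same-numbered libraries of 2 ATs had a median correlation of 0.606 to 0.680 in WG, 0.168 to 0.460 in WL and 0.130 to 0.292 in NC. The own number gave the best correlation for 136 of 207 pairs in WG, 31 of 60 in WL and 22 of 44 in NC. It did so for every library only between GOM and ULB in NC (4 pairs). Tests without a block treat such libraries as independent. Chosen after seeing the data, leaving out 4 lymphocyte-rich MAD libraries gave 6 for WL against WG in MAD and 6 for the interaction. Leaving out each replicate in turn gave 6 (NC ULB replicates 2 and 7) to 14 for ULB against VATs in NC and 7 (NC ULB replicate 9) to 21 for WG against NC in ULB. Of the members called lower in WG, 24 of 33, 13 of 16, 27 of 34 and 6 of 13 (GOM, MAD, RAD, ULB) kept their direction in the high-Q30 libraries alone, and 26 of 33 did in GOM with the TUCP table alone. Among the named members, directions of WG against NC reversed as follows (log2 fold change). With the Q30 term these were G26036 in MAD (0.224) and RAD (0.795) and G4391 in MAD (0.036). By the TUCP table alone, they were G10131 (0.008) and G38144 (0.1) in GOM, and by DESeq2 G24136 in MAD (0.575). In the high-Q30 libraries alone they were, in GOM, G24136 (1.910), G26036 (2.207), G31272 (0.546), G31316 (1.860), G31457 (4.909) and G4391 (2.441), in MAD G24136 (0.533), G26036 (0.832) and G4391 (0.439), in RAD G24136 (0.45), G26036 (2.019) and G31272 (0.003), and in ULB G24136 (2.771), G26036 (2.097), G42799 (0.047) and G4391 (0.181). The cause was not tested. NC high-Q30 libraries numbered 2 in GOM and 3 in ULB, which limits those values most.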
